A study of Mus musculus with 6 samples.

Results

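Hox genes encode homeodomain transcription factors and were measured here in sorted thymic and thyroid epithelial cells of C57BL/6 mice. Every probe that the array files name as a gene of Hox cluster A, B, C or D was taken, which gave 50 probes for 38 genes, of 41174 probes and 27591 named genes in all. Hoxc11 has no probe under that name. The thymic cells carried the tissue label of thymic medulla and were sorted as Epcam+ UEA1+ CD45- Fluorogold-, and the thyroid cells as Epcam+ CD45- Fluorogold-. Epcam is an epithelial adhesion protein, UEA1 a lectin that binds medullary epithelium, CD45 a surface protein of blood cells, and Fluorogold a dye that enters dead cells. No genetic change or treatment is given for either group. Each group had 3 single-colour arrays. The first 2 thymic samples were pools of 6 thymi each and the third a pool of 2. Every thyroid sample was a pool of 20 thyroids.

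In the mouse, Hox genes lie in 4 clusters, and their order along a cluster follows the order in which they are expressed from the head to the tail of the embryo. Genes at the same place in different clusters are paralogs and carry the same number, from 1 at the head end to 13 at the tail end. Thymus and thyroid both form from the pharyngeal endoderm, where Hoxa3 and its paralogs are known to be needed for the thymus, the parathyroid glands and the normal growth of the thyroid. Medullary epithelial cells of the thymus are also known to transcribe many genes of other tissues, in part through the regulator Aire. Cluster A lies on chromosome 6, B on chromosome 11, C on chromosome 15 and D on chromosome 2.

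The probes are 60-base oligonucleotides, and those behind the largest differences are shown. In the first set, capitals mark bases that are identical in the best ungapped alignment with 1 chosen other probe. For Hoxb13 and Hoxa13 each was set against the other, with 40 identical bases of 58 aligned, and the Hoxd13 probe was set against that of Hoxb13, with 28 of 44. The Hoxd13 probe shares more with that of Hoxa13, 33 of 46, which is not marked. These are shown whole so that the overlap can be seen. Over all 1213 pairs of probes of different Hox genes, the median was 20 identical bases.
Hoxb13: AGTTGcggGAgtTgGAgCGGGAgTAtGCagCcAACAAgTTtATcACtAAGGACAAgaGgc
Hoxa13: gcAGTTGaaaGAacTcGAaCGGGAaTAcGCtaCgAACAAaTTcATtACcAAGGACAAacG
Hoxd13: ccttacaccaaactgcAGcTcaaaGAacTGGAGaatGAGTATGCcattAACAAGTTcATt
On the mm8 build of the array files these lie at chr11:96012144-96012203 on the plus strand, chr6:52188599-52188658 on the minus strand and chr2:74470787-74470846 on the plus strand. For the 6 genes with the largest differences apart from Hoxb13, the first 30 bases identify the probe. All of these are in lower case, since no part was compared.
Hoxc9: tgcaaactcttgcgatgtgggagggttaag
Hoxc6: tcgaacgtgaccgtttctgtgtgaatattt
Hoxc10: ggaaagaaagggggataatcaaacagagag
Hoxd8: tgcgctttgaaagggatttctgtgttttta
Hoxa5: gtgtaattaatgctgttgtagaggtgactt
Hoxb5: taggccccacaaggcctagtctggaagcgt
The whole probes lie at chr15:102812338-102812397, chr15:102839635-102839696 and chr15:102799460-102799519 on the plus strand, chr2:74507803-74507862 on the plus strand, chr6:52131633-52131692 on the minus strand and chr11:96121906-96121965 on the plus strand. Which part of each transcript a probe matches was not analysed here.

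Values below are levels, the log2 of a probe's signal over its array's 75th percentile, and differences are thymic minus thyroid on that scale. A probe counts as above background where the scanner software flagged its signal as well above background. A gene was tested where a probe of it passed that flag throughout the thymic arrays or throughout the thyroid arrays, and was called at an adjusted p under 0.05 (limma, Benjamini-Hochberg over 21377 genes). Levels of different probes are not comparable. The share of probes above background was 78.4% to 81.0% on the thymic arrays and 65.4% to 72.8% on the thyroid arrays, and arrays of a group correlated at 0.987 or more over all genes tested. The sorted cells carried their labels' markers: all 9 tested markers of medullary epithelium were higher in thymic cells, with Aire at a difference of 12.08 and Fezf2, above background on no thyroid array, at least 851-fold higher, and 9 of 10 follicular markers were higher in thyroid cells, with Tg at -10.78. Of these markers, 2 medullary ones were above background on no thyroid array and 2 follicular ones on no thymic array, and had to differ. Over all tested genes, 39.2% were called higher in thymic cells and 30.6% higher in thyroid cells. Epcam, the sorting marker of both groups, differed by 1.24. Thyroid replicate 3 stood apart, with an Xist level of 4.47 against -7.58 and -7.38 in thyroid replicates 1 and 2, and its Y-linked probes were at background. Without that replicate 9 Hox genes were called higher in thymic cells and 10 in thyroid cells, as with it. Whether the 3 samples of a group came from separate animals beyond the pooling is not stated, so p-values measure the spread between these samples.

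Of 38 Hox genes, 27 were tested. Higher levels in thymic cells were called for 9 genes and higher levels in thyroid cells for 10, while 8 were not called. Over all 21377 genes tested, 39.2% were called higher in thymic cells and 30.6% higher in thyroid cells. Calls of 2-fold or more numbered 7 towards thymic cells and 6 towards thyroid cells, where the shares over all genes were 28.4% and 14.8%. Calls in either direction made up 69.8% of all genes. The values of the groups did not overlap for 9 Hox genes with thymic cells above and for 11 with thyroid cells above, against 42.1% and 34.4% of all genes. The median difference of the tested Hox genes was -0.33, against 0.10 over all genes. Of the 27 tested Hox genes, 7 were above background on all thymic arrays and no thyroid array by the probe that stands for them. This pattern was found in 10.7% of all tested genes. All 7 were among the 9 called higher in thymic cells. These entered the test only through the thymic group and had to differ. A comparison without such genes uses the 18 Hox genes above background on all 6 arrays. That filter is tied to direction too. Across the array it leaves out more genes detected in thymic cells alone (10.7%) than in thyroid cells alone (0.734%). Of the 18 Hox genes, 2 were called higher in thymic cells and 9 higher in thyroid cells, with a median difference of -0.38. Among the 17069 genes of the array that were above background on all 6 arrays, 29.4% were higher in thymic cells and 37.7% in thyroid cells, with a median of -0.10. All 3 thymic arrays shared slide 1 with thyroid replicate 1. Slide 2 held the other 2 thyroid arrays. With the slide as a block 9 Hox genes were called higher in thymic cells and 9 in thyroid cells, and on slide 1 alone 9 and 11. The second of these fits has 1 thyroid array, whose spread is taken from the thymic arrays. Median centring of each array, which moved the median of all genes by -0.53, gave 7 and 14 Hox calls, and 35.6% of all calls were then towards thymic cells, against 56.1% as reported.

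**Figure D1:**
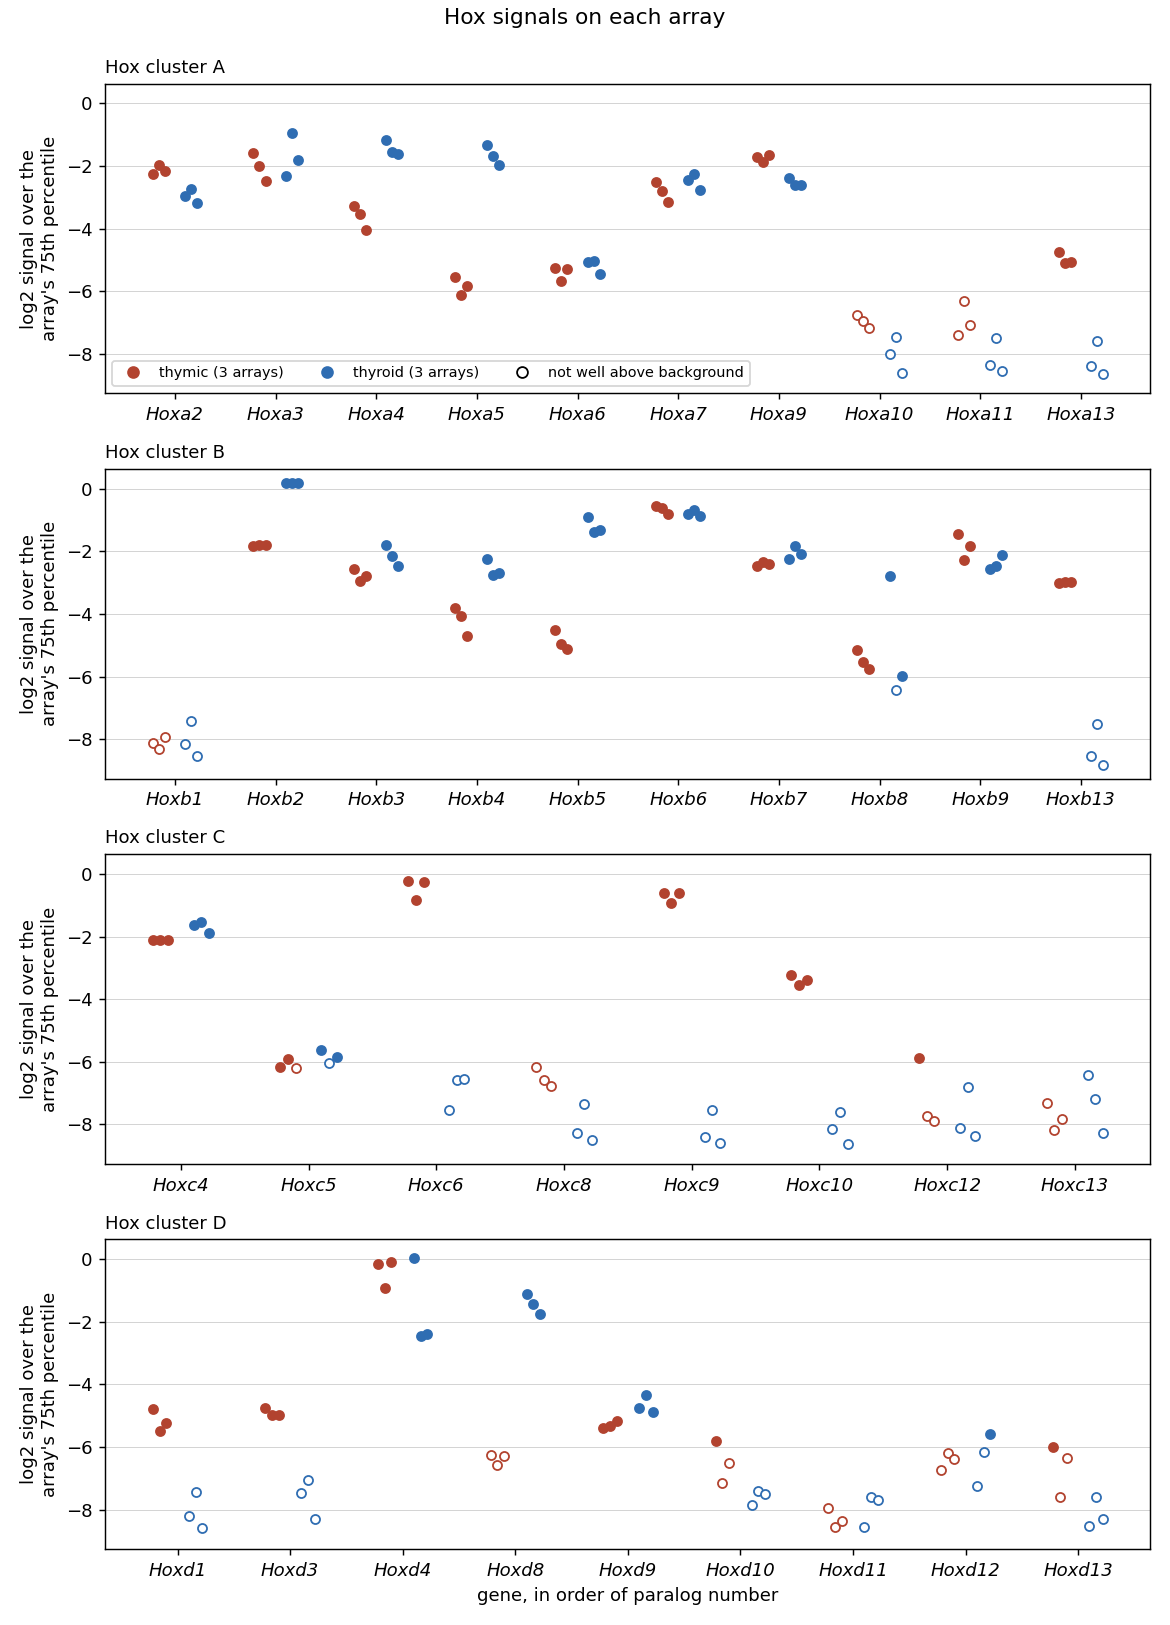
Levels of Hox genes on each array, as log2 signal over the array's 75th percentile, by cluster and in order of paralog number, with the thymic arrays left of the thyroid arrays. Filled points were well above background and open points were not, and Hoxc6, Hoxc9 and Hoxc10 have filled thymic and open thyroid points, while Hoxd8 has the reverse.

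Markers of other cell types moved with the groups beside these Hox differences. All 13 endothelial markers were higher in thyroid cells, with a summed level of 5.17 to 5.38 in thymic cells and 533 to 784 in thyroid cells, as linear signal over the 75th percentile. Kdr, an endothelial receptor gene, differed by -10.80 and Pecam1 by -7.29, and Clec14a was above background on no thymic array. Towards thymic cells, all 9 myeloid markers were higher, with sums of 96.0 to 104 in thymic cells and 1.66 to 2.90 in thyroid cells. Lyz2, which differed by 6.74, made up most of the thymic sums, and the median difference of the list was 2.00. So were 10 of 11 thymocyte markers, with sums of 3.47 to 5.98 in thymic cells and 0.71 to 0.86 in thyroid cells, and all 6 B-cell markers, with sums of 4.08 to 4.93 in thymic cells and 1.30 to 2.43 in thyroid cells. Ptprc, which encodes the CD45 used to exclude blood cells, was 16.5-fold higher in thymic cells. Fibroblast markers overlapped, with sums of 26.4 to 44.6 in thymic cells and 9.37 to 26.9 in thyroid cells, and 3 of 12 were higher in thymic cells. The C-cell markers gave 2 calls towards thymic cells and 4 towards thyroid cells. Their sums were 74.9 to 103 in thymic cells and 481 to 858 in thyroid cells, and Calca differed by -4.05. Over all tested genes, 39.2% were called higher in thymic cells and 30.6% higher in thyroid cells. Above background on no thyroid array were 3 thymocyte, 3 B-cell and 1 myeloid marker, which entered through thymic arrays alone and had to differ. The reverse held for 1 endothelial and 1 C-cell marker. In sorted bulk RNA, fewer cells of a type and less RNA per cell cannot be told apart, and the part of these markers in the Hox differences was not tested.

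Cluster C held the largest differences towards thymic cells. Hoxc9, known for setting thoracic identity of motor neurons, was at -0.61, -0.93 and -0.60 in thymic cells, against -8.41, -7.53 and -8.60 in thyroid cells, where no array was above background. The groups lay far apart, and the difference was 7.47, with a lower bound of 5.36 (adjusted p = 1.83e-06, limma). A bound sets each dim array at its lowest signal well above background, unless the probe's own signal is higher. Hoxc6, a trunk gene, was at -0.23, -0.84 and -0.25 in thymic cells and at -7.55, -6.59 and -6.54 in thyroid cells, again with no thyroid array above background, which makes a bound of at least 49.1-fold towards thymic cells (adjusted p = 4.54e-06, limma). Hoxc10, a lumbar gene in the spinal cord, had levels of -3.22, -3.54 and -3.37 in thymic cells, against -8.16, -7.59 and -8.62 in thyroid cells, a bound of at least 6.45-fold. By the other Hoxc10 probe, which was above background on thyroid replicate 1, the difference was 1.53 and was not called. Hoxc8, which lies between Hoxc6 and Hoxc9 along the cluster, was above background on no array of either group and was not tested. It was at -6.18, -6.59 and -6.76 in thymic cells, against -8.26, -7.36 and -8.51 in thyroid cells. A less strict scanner flag, for a positive and significant signal, was set for it on 3 thymic and 0 thyroid arrays. Hoxc4 at the head end of the cluster showed a small difference towards thyroid cells. Its levels were -2.11, -2.10 and -2.11 in thymic cells and -1.62, -1.54 and -1.89 in thyroid cells (difference -0.42, adjusted p = 0.0197, limma). That call was lost in 6 alternatives, among them the slide block (adjusted p = 0.0562, limma).

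Clusters A, B and D each held genes detected in thymic cells alone by their leading probe. Hoxb13, known from the prostate and the tail bud, had nearly equal thymic levels, -2.98 ± 0.02 (SD, n = 3), against -8.53, -7.53 and -8.81 in thyroid cells, none of them above background. Its bound was 8.53-fold (adjusted p = 1.09e-05, limma). Hoxa13, a gene of the limb tip and the hindgut end, had levels of -4.76, -5.10 and -5.06 in thymic cells and -8.39, -7.57 and -8.65 in thyroid cells. The bound for Hoxa13 was 2.14-fold. The probe that gave it shares 40 of 58 aligned bases with the Hoxb13 probe, as printed above. The other Hoxa13 probe was above background on no array and was not tested. It was at -6.77, -7.66 and -6.66 in thymic cells, against -8.12, -7.44 and -8.60 in thyroid cells. Whether part of the Hoxa13 signal is Hoxb13 RNA was not tested. Hoxd1 and Hoxd3, genes of the head end of cluster D, had bounds of 1.87-fold and 2.25-fold. Hoxd1 was at -4.78, -5.50 and -5.22 in thymic cells, against -8.20, -7.44 and -8.59 in thyroid cells. Hoxd3, a paralog of Hoxa3, was at -4.74, -4.98 and -4.97 in thymic cells and at -7.47, -7.05 and -8.30 in thyroid cells. Its other probe was above background on no array. With normexp background correction the calls of Hoxa13, Hoxd1 and Hoxd3 were lost (adjusted p = 0.0778, 0.265 and 0.331, limma), and the differences of Hoxc9, Hoxc6, Hoxb13 and Hoxc10 were 3.02, 3.14, 1.27 and 1.01, still called.

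The largest differences towards thyroid cells belonged to central paralogs of clusters D, A and B. Hoxd8, a trunk gene, was at -6.24, -6.58 and -6.27 in thymic cells, none of them above background, against -1.12, -1.42 and -1.74 in thyroid cells. Its bound was at least 26.9-fold towards thyroid cells (adjusted p = 1.75e-06, limma). Hoxd8 entered the test through the thyroid arrays alone and had to differ. Of all tested genes, 0.734% were likewise above background on every thyroid array and on no thymic array. Hoxa5, known in the mouse for the lung and the thyroid, was above background on all 6 arrays, with levels of -5.53, -6.12 and -5.82 in thymic cells and -1.32, -1.67 and -1.97 in thyroid cells. Its difference of -4.17 had an SE of 0.22 and an adjusted p of 6.11e-06 (limma), which is 18.0-fold. Its paralog Hoxb5, used as a marker of blood stem cells in the mouse, was at -4.51, -4.97 and -5.12 in thymic cells, against -0.92, -1.40 and -1.33 in thyroid cells, a difference of -3.65 ± 0.21 (SE, n = 3 each, adjusted p = 8.64e-06, limma) or 12.6-fold. With normexp background correction the differences of Hoxa5 and Hoxb5 were -1.98 and -2.14, still called. Thus the tested group-5 paralogs of clusters A and B were both lower in thymic cells. Hoxc5, the paralog in cluster C, was above background on 2 arrays of each group and was not tested.

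Hoxa4, Hoxb4 and Hoxb2 were also higher in thyroid cells. Hoxa4 was at -3.29, -3.53 and -4.04 in thymic cells, against -1.18, -1.56 and -1.60 in thyroid cells (difference -2.17, adjusted p = 0.00014, limma). Hoxb4, known for expanding blood stem cells when overexpressed, had levels of -3.81, -4.07 and -4.71 in thymic cells and -2.25, -2.76 and -2.69 in thyroid cells (difference -1.63, adjusted p = 0.00131, limma). Hoxb2, a gene of hindbrain segments, was at -1.83, -1.80 and -1.81 in thymic cells, against 0.17, 0.18 and 0.17 in thyroid cells. The replicates were nearly equal, and the difference was -1.99 (adjusted p = 3.97e-06, limma). Of the 4 genes with number 4, Hoxd4 alone had a positive difference, 1.22, which was not called (adjusted p = 0.150, limma). Hoxd4 was at -0.15, -0.92 and -0.10 in thymic cells, and at 0.03, -2.46 and -2.40 in thyroid cells, so that thyroid replicate 1 lay with the thymic arrays and the groups overlapped. Without thyroid replicate 1 the difference was 2.04 (adjusted p = 0.0015, limma), and on slide 1 alone it was -0.42.

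Hoxa3, the gene tied to thymus and parathyroid formation, was not called. Its levels were -1.59, -2.01 and -2.47 in thymic cells and -2.32, -0.94 and -1.80 in thyroid cells, with a difference of -0.33 and a 95% interval of -1.25 to 0.58 (adjusted p = 0.463, limma). The groups overlapped. By this probe thyroid replicate 2 had the highest Hoxa3 level, and the parathyroid markers were highest there too, with Pth at 8.57 against 6.38 and 6.46 in thyroid replicates 1 and 3. Of the 4 parathyroid markers, 3 were higher in thyroid cells, against 30.6% of all tested genes. Chga among these 3 is also in the C-cell list. The summed level of the 4 markers ran from 29.4 to 87.1 in thymic cells and from 163 to 721 in thyroid cells. Their part in the Hoxa3 level was not tested. By the other tested Hoxa3 probe, at -3.72, -4.46 and -4.23 in thyroid cells, replicate 2 was the lowest of the thyroid arrays. Without thyroid replicate 2 the Hoxa3 difference was 0.04, and on slide 1 alone it was 0.30. Hoxb3 was at -2.57, -2.94 and -2.79 in thymic cells, against -1.79, -2.16 and -2.46 in thyroid cells (difference -0.63, adjusted p = 0.0251, limma). By this probe the call was lost when any single one of thymic replicates 2 and 3 and thyroid replicates 1 and 2 was left out. By the other Hoxb3 probe the difference was -1.89 (adjusted p = 4.00e-05 in a fit of all probes, limma). The first probe shares 35 of 46 aligned bases with the Hoxa9 probe. Whether part of its signal is Hoxa9 RNA was not tested.

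**Figure D2:**
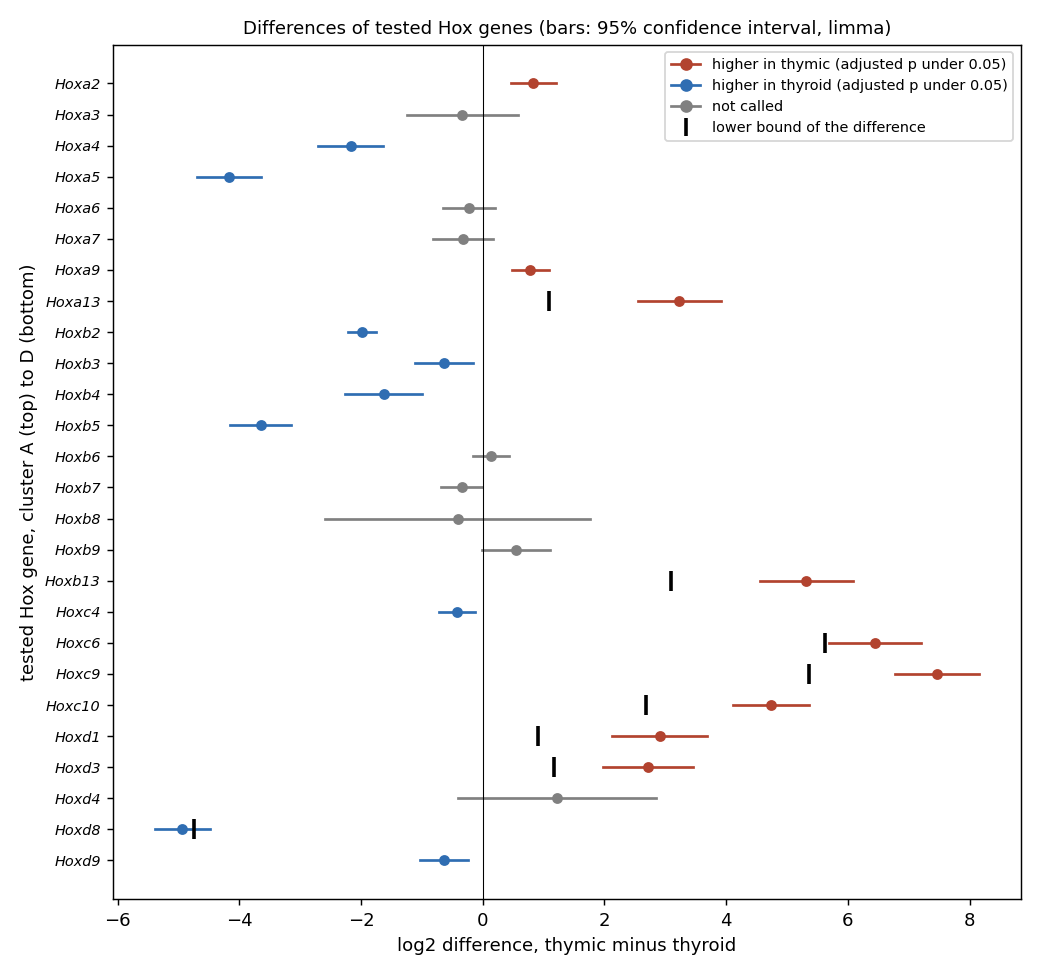
Log2 difference (thymic minus thyroid) of tested Hox genes with the 95% confidence interval from limma, cluster A at the top and D at the bottom. Black ticks mark the lower bound where a group had no array above background, and the differences run from -4.94 for Hoxd8 to 7.47 for Hoxc9.

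Smaller differences towards thymic cells were found for Hoxa2 and Hoxa9. Hoxa2, which sets the identity of the second pharyngeal arch, was at -2.27, -1.96 and -2.16 in thymic cells and -2.97, -2.73 and -3.18 in thyroid cells (difference 0.83, adjusted p = 0.00273, limma). Hoxa9, known from blood progenitors and leukaemia, was at -1.70, -1.89 and -1.66 in thymic cells, against -2.37, -2.61 and -2.62 in thyroid cells (difference 0.78, adjusted p = 0.00124, limma). In both genes the groups did not overlap, which was so for 76.5% of all genes tested. Hoxa2 and Hoxa9 are the 2 genes above background on all arrays that were called higher in thymic cells, and neither call held with median centring (adjusted p = 0.123 and 0.113, limma).

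Between these, the middle of clusters A and B showed little at the reported scaling. Hoxa6 (-0.23), Hoxa7 (-0.33), Hoxb6 (0.13), Hoxb7 (-0.34) and Hoxb9 (0.55) were not called. By the probes that stand for these genes, the absolute differences were all below 0.6. Median centring called Hoxa6, Hoxa7, Hoxb7 and Hoxb6 higher in thyroid cells, and for Hoxb6 this changed the sign (-0.40, adjusted p = 0.0219, limma). The authors' deposited values called the same genes in that direction. Quantile normalization called Hoxa6 (-1.45), Hoxa7 (-0.84) and Hoxb7 (-0.73) higher in thyroid cells, but not Hoxb6 or Hoxb9. Hoxb8 was at -5.16, -5.54 and -5.77 in thymic cells and at -2.80, -6.43 and -5.99 in thyroid cells. Thyroid replicate 1 alone was high, as for Hoxd4, so the difference was -2.69 on slide 1 (adjusted p = 0.000734, limma) and 0.72 without that replicate (adjusted p = 0.038, limma). Over the 18 Hox genes above background on all arrays, the median range between arrays of a group was 0.39 in thymic cells and 0.44 in thyroid cells.

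The calls were also counted by position along the clusters. Over all tested genes, 39.2% were called higher in thymic cells and 30.6% higher in thyroid cells. Of 11 tested anterior genes (numbers 1 to 4), 3 were called higher in thymic cells and 6 higher in thyroid cells. Among 9 tested central genes (5 to 8) the calls were 1 and 3. Of 7 tested posterior genes (9 to 13), 5 were called higher in thymic cells and 1, Hoxd9, higher in thyroid cells. Hoxd9 was at -5.40, -5.33 and -5.16 in thymic cells, against -4.75, -4.35 and -4.89 in thyroid cells (difference -0.64, adjusted p = 0.0123, limma), and lost its call with the slide block (adjusted p = 0.0996, limma) and with normexp (adjusted p = 0.234, limma). Since 4 of the 5 posterior genes higher in thymic cells passed the filter through thymic arrays alone, that count describes the genes detected and is no test of position. The remaining posterior genes mostly lacked the flag for signals well above background in both groups. The less strict flag, for a positive and significant signal, was set on 3 thymic arrays for Hoxa10, Hoxa11, Hoxd10 and a Hoxd13 probe. On thyroid arrays these had it 1, 0, 2 and 1 times. Hoxd12 carried it on 3 arrays of each group, and Hoxc12, Hoxc13 and Hoxd11 on 2, 1 and 1 thymic arrays. Hoxa10, Hoxa11, Hoxc13 and Hoxd11 were above background on no array, Hoxc12, Hoxd10 and Hoxd13 on thymic replicate 1 alone, and Hoxd12 on thyroid replicate 3 alone. With Hoxb1, Hoxc5 and Hoxc8 these make the 11 genes not tested.

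Several genes had 2 probes, which allowed the measurement to be repeated within an array. Of 12 such genes, 7 had both probes tested, and the differences had opposite signs for Hoxb6 alone. There, one probe gave 0.13 and the other -0.71 (adjusted p = 0.0166 in a fit of all probes, limma). The largest disagreement was that of Hoxc10, at 4.74 and 1.53 (adjusted p = 0.173 for the second in a fit of all probes, limma). Its second probe was at -5.67, -5.71 and -5.36 in thymic cells, against -4.86, -7.71 and -8.77 in thyroid cells, with thyroid replicate 1 above background and the highest of the 6 arrays. Hoxd9 gave -0.64 by one probe and -2.85 by the other, which was above background on no thymic array. The Hoxb3 probes, drawn from 2 transcript variants, gave -0.63 and -1.89. Hoxb2 gave -1.99 and -1.23, and the second of these probes is placed on the minus strand, opposite to the gene, so it reads the other strand of the locus. For Hoxa3 the differences by the probes lay 0.02 apart, although the probes ordered the thyroid arrays in opposite ways.

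**Figure D3:**
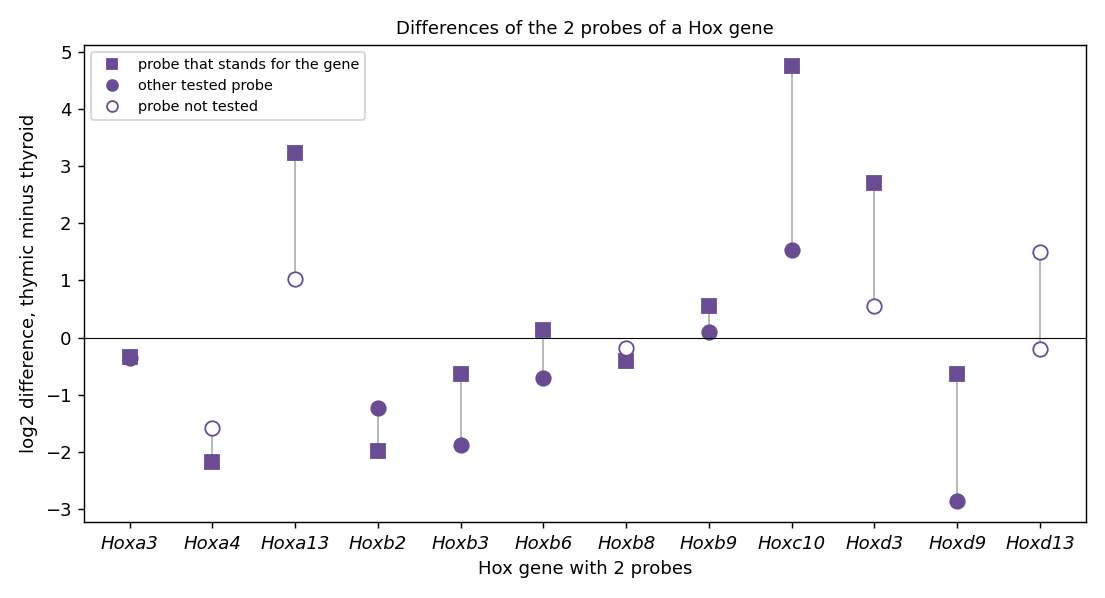
Log2 difference (thymic minus thyroid) by each probe of the 12 Hox genes with 2 probes; squares mark the probe that stands for the gene, filled circles other tested probes and open circles probes not tested. The squares and circles lie close for Hoxa3 and far apart for Hoxc10 (4.74 and 1.53).

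Transcripts other than Hox genes inside the clusters were read by 9 probes, 6 of which were above background on no array. Hoxd3os1, named as an opposite-strand transcript of Hoxd3, was at -8.53, -8.37 and -8.09 in thymic cells, none above background. In thyroid cells it was at -2.59, -2.75 and -3.44, all above background. Its probes start at chr2:74510948 and chr2:74514163 on mm8. That is nearer to the Hoxd8 probe, at chr2:74507803, than to the Hoxd3 probes, at chr2:74545313 and chr2:74548338. The higher group of Hoxd3os1 was that of Hoxd8 and not that of Hoxd3. A second Hoxd3os1 probe was above background on 2 thyroid arrays. Hoxaas2, an antisense transcript of cluster A, differed by 0.67 (adjusted p = 0.00639, limma), with higher levels in thymic cells.

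Promoters are shown for Hoxd3 and Hoxd8, which lie near each other in cluster D and were called in opposite directions. Both are RefSeq sequences of the GRCm38.p6 build, 300 bases around the gene's start, at chr2:74711743-74712042 and chr2:74704365-74704664, both on the plus strand. Capitals mark AGGTCA, a core motif of nuclear receptors such as those for retinoic acid, on either strand.
Hoxd3: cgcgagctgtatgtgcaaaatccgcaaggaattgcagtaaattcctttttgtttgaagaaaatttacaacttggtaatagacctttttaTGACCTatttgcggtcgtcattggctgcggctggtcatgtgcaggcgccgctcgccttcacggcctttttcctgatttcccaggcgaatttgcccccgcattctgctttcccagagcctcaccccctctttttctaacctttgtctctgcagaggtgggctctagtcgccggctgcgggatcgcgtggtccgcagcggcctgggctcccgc
Hoxd8: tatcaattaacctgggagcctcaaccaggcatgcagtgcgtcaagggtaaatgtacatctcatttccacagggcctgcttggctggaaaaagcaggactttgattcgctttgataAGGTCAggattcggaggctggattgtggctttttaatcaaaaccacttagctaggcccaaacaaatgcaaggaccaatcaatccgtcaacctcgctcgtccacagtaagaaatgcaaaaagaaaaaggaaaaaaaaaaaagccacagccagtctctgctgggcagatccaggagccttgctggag
Such a table entry was found for 22 of the 38 Hox genes, 24 promoters in all. AGGTCA occurred in 7 of the 24, against 16.3% of 32851 promoters of the same length. The letters TGATNNAT, bound by Hox and Pbx proteins together, occurred in 4, against 8.85% of all. TGACAG, the Meis motif, occurred in 2, against 19.2%, and TAATTA, a general homeodomain motif, in 2, against 5.29%. All were searched on both strands, and matches may overlap. Median GC content was 57.7% in Hox promoters and 52.7% in all, with 14.5 and 7 CpG dinucleotides.

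Hox proteins bind DNA with cofactors of the TALE class, and all 9 listed cofactors were tested. Of these, 4 were called higher in thymic cells and 2 higher in thyroid cells, against 39.2% and 30.6% of all tested genes. Meis1, a cofactor of many Hox proteins, was at -0.17, -0.32 and 0.02 in thymic cells, against -4.02, -3.60 and -3.97 in thyroid cells (difference 3.71, adjusted p = 2.74e-06, limma). Pknox2 followed at 2.63, and Pbx4 was 2.83-fold higher in thymic cells. Towards thyroid cells Pbx3 differed by -1.08 and Pknox1 by -0.93, while Meis2 (-0.28) was not called. With median centring 4 cofactors were called higher in thyroid cells, as were 11037 of all 21377 tested genes.

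Cdx factors, which activate central and posterior Hox genes in the embryo and mark the gut later, were represented by Cdx1 and Cdx2, while Cdx4 was not tested. Cdx1 was at 0.34, 0.41 and 0.33 in thymic cells, against -7.89, -7.56 and -8.84 in thyroid cells, none above background, with a bound of at least 86.2-fold (adjusted p = 1.57e-06, limma). Cdx2 was at -1.44, -2.08 and -1.48 in thymic cells and at -8.46, -7.59 and -8.71 in thyroid cells, a bound of at least 21.2-fold. Both passed the filter through the thymic arrays alone and had to differ. Of the 8 listed Cdx, Evx and ParaHox genes, 4 were tested and the other 2 tested were not called.

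Retinoic acid, made from vitamin A, induces Hox genes in the embryo, and 16 of 18 listed pathway genes were tested. Of these, 7 were called higher in thymic cells and 7 higher in thyroid cells, with a median difference of -0.04, where the shares over all tested genes were 39.2% and 30.6%. Cyp26a1, which breaks retinoic acid down, was at 0.56, 0.40 and 0.52 in thymic cells, against -4.94, -5.26 and -5.17 in thyroid cells (difference 5.62, adjusted p = 3.77e-07, limma). Crabp1 and Crabp2, which bind retinoic acid in the cell, were at least 48.8-fold and 8.38-fold higher in thymic cells. Aldh1a2, which makes retinoic acid, was higher in thymic cells by 0.95, and Cyp26b1 was not tested. Towards thyroid cells the receptor gene Rarg differed by -2.55 and the reductase gene Dhrs3 by -2.13.

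Hox clusters are kept active by Trithorax proteins and silent by Polycomb proteins, and calls in these lists went in both directions, where 39.2% of all tested genes were called higher in thymic cells and 30.6% higher in thyroid cells. Of 12 Trithorax and MLL genes, 2 were higher in thymic cells and 5 higher in thyroid cells, and Kmt2a, which encodes MLL1, was not called (-0.17). The largest were Wdr5 at -0.90 and Men1 at -0.84. Of 11 genes of Polycomb complex 2, 4 were higher in thymic cells and 3 higher in thyroid cells, with Aebp2 at 2.23, the methyltransferase gene Ezh2 at 1.25, its relative Ezh1 at -0.80 and Suz12 at -0.39. Of 17 genes of Polycomb complex 1, 6 were higher in thymic cells and 4 higher in thyroid cells, with Cbx2 at 1.85 and Bmi1 at -0.93. Median centring left no Trithorax gene higher in thymic cells and called 8, 7 and 9 genes of the 3 lists higher in thyroid cells. Under that setting 11037 of all 21377 tested genes were called higher in thyroid cells and 6095 higher in thymic cells.

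**Figure D4:**
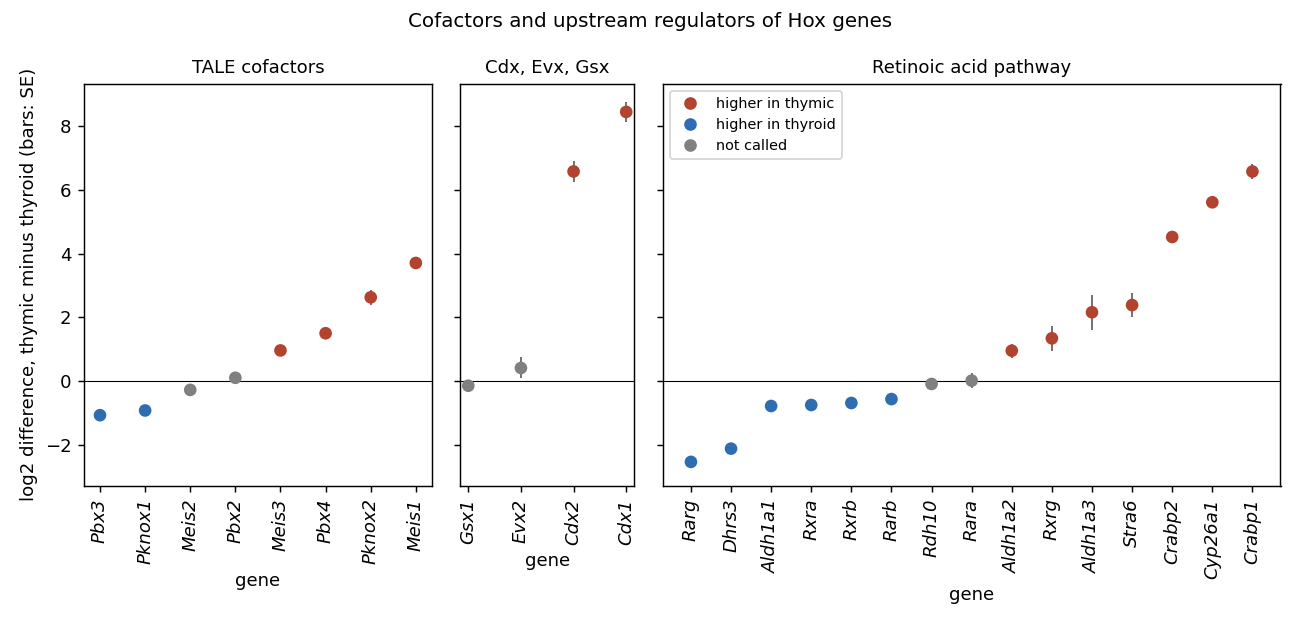
Log2 difference (thymic minus thyroid, with its SE) of tested TALE cofactors, Cdx, Evx and Gsx factors and retinoic acid pathway genes. Cdx1, Cdx2, Crabp1 and Crabp2 were above background on no thyroid array, so their points are no exact differences; Cyp26a1, above background on all arrays, lies at 5.62 and Rarg at -2.55.

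Other regulators of the pharynx and hindbrain differed in both directions. Foxn1, the thymic epithelial regulator, differed by 4.72 and Pax1 by 6.05, against -7.72 for Nkx2-1 and -6.09 for Hhex, both thyroid regulators. Pax8, another of these, was above background on no thymic array and at least 133-fold higher in thyroid cells. Of these 15 listed genes 8 were higher in thymic cells and 4 higher in thyroid cells, against 39.2% and 30.6% of all tested genes.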

How the data were processed

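Cy3-labelled RNA, extracted with Trizol per the labels' protocols, was hybridised to single-colour arrays. The scanner software was Agilent Feature Extraction, version 10.5.1.1, and probe positions are on mm8, per the file headers. Each deposited scanner file holds spot intensity values, with a background-subtracted processed signal and a flag, per the file headers set at 13 background SDs, for signals well above background. The authors' deposited value table holds a ratio, the processed signal over the array median, and served as an alternative.

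Control and outlier spots were dropped and replicate spots averaged, with a flag kept where 50% or more of the spots carried it. Levels are log2 of the processed signal less the 75th percentile of the array. Where several probes of a gene were tested, the brightest on average stood for it. RefSeq gave the same gene name for all 50 Hox probes, 47 by accession and 3 by symbol. limma 3.58.1 under R 4.3.3 fitted the 2 groups without covariates (moderated two-sided test), and p-values were adjusted by Benjamini-Hochberg over all tested genes. The code was tested on simulated data. The small number of arrays limits the precision.

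The members and lists were chosen with earlier results of these data known. The text names the Hox genes, from each other list at most 3 called genes per direction with the largest differences, and Aire, Fezf2, Foxn1, Tg, Pax8, Nkx2-1, Epcam, Ptprc, Pecam1, Kdr, Meis1, Meis2, Kmt2a, Ezh2, Cdx1, Cdx2, Aldh1a2 and Cyp26b1 in any case. Some genes that this rule takes are not reported here, although the counts include them. Xist, Hoxd3os1, Hoxaas2 and Clec14a were added once their values were seen. Other settings covered background correction (normexp, offset 50), scaling (median, quantile, the value table), the filter on dim probes, the choice of probe, blocks for slide and replicate number, slide 1 by itself, the variance model and the omission of each array. A scaling on detected probes, the omission of replicate 3 of both groups and a floor for dim values were added after the data had been seen.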

Additional observations from a re-analysis of the deposited data

How the results depend on the processing

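Over all alternatives, the count of Hox genes called higher in thymic cells was within 1.5 times the reported 9, and that towards thyroid cells within 1.5 times the reported 10, except that no filter on dim probes called 14 of 38 genes higher in thymic cells and a filter on all 6 arrays called 2 of 18. The first tests more genes and the second fewer. Leaving out each replicate gave 9 to 11 genes towards thymic cells and 8 to 10 towards thyroid cells. The replicate numbers did not pair the samples: same-numbered arrays' deviations correlated at 0.01, -0.07 and -0.05, and the replicate block gave 9 and 10 calls. Of the differences of single Hox genes, 514 kept their direction and side of the threshold, 15 became called, 20 lost the call and 9 changed sign. The sign changes were in Hoxb6 (-0.40 with median centring, -0.39 with the value table, -0.29 with the median over its probes), Hoxa3 (0.30 with the slide block and on slide 1 alone, -0.65 to 0.040 when each replicate was left out, highest without thyroid replicate 2), Hoxd4 (-0.42 with the slide block and on slide 1 alone) and Hoxb8 (-1.09 to 0.72 when each replicate was left out, highest without thyroid replicate 1), and none of these genes was called as reported. Hoxd4 was called higher in thymic cells without thyroid replicate 1 (2.04). Quantile normalization gave 8 and 13 calls, and the authors' deposited values gave 7 and 14. With normexp the differences of Hoxc9, Hoxc6, Hoxb13, Hoxc10, Hoxd8, Hoxa5 and Hoxb5 were 3.02, 3.14, 1.27, 1.01, -2.08, -1.98 and -2.14, all nearer to 0 than as reported and all still called. For these changes the cause was not tested.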
